A study of Homo sapiens with 10 samples.

Results

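The visual cycle and retinoid genes of ARPE-19 cells were examined as a group of 9 genes chosen by symbol: RPE65, LRAT, RLBP1, RDH5, RGR, STRA6, RDH11, RDH10 and CRABP2. Each has 1 row among the 22626 rows of the deposited count table. ARPE-19 is an established human cell line derived from the retinal pigment epithelium (RPE). Its RNA was sequenced after 48 h in control medium, with 5.5 mM glucose and 32 mM mannitol (n = 5 libraries), or in high glucose (HG) medium with 37.5 mM glucose (n = 5). The treatment stood for diabetes in a study of RPE cells, and mannitol, a sugar alcohol, balanced the osmotic load of the control medium. Nothing in the labels states that the libraries of a group came from separate cultures, so p-values measure only the spread between these libraries, which may be technical. Control libraries are named by the number in their label and HG libraries by their deposited column, HG_1 to HG_5.

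The visual cycle is the pathway by which the RPE turns spent all-trans-retinoid from photoreceptors back into 11-cis-retinal, the light-sensitive chromophore. LRAT esterifies retinol, RPE65 isomerizes the ester to 11-cis-retinol, RDH5 and RDH11 oxidize it, and CRALBP, the product of RLBP1, carries the 11-cis form. Retinol also feeds a branch toward retinoic acid, which CRABP2 shuttles to nuclear receptors, and this branch does not need the visual cycle enzymes.

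The libraries held between 32448991 and 45864176 counts. Of the genes used as RPE identity markers, OTX2 and MITF, transcription factors of the RPE, had mean levels of 33.9 and 11.4 FPKM (fragments per kilobase of transcript, scaled to the size of the library) in the control libraries, while TRPM1 and TTR were at 0 in all libraries. In control PAX6 was at 24.2 and PMEL at 1.65 FPKM, and KRT8, KRT18 and EZR were between 234.6 and 954.1. SERPINF1, TYRP1, SLC16A8, CDH3, TYR, MERTK and DCT were low, with control means between 0.019 and 0.52 FPKM, and KCNJ13 was at 0 there. BEST1 is given below. The photoreceptor genes CRX, SAG, GNAT1 and GUCA1A were at 0 in all libraries too, whereas PDE6B, a phosphodiesterase subunit of rods, was at 5.40 ± 1.17 FPKM in control and 6.62 ± 1.04 in HG. The trend of expression on GC content set 2 libraries apart. For each library the trend was fitted to log2 CPM (counts scaled to library size) minus the mean of the other libraries. This difference rose by 0.19 per 10 points of GC in control replicate 2 and by 0.21 in HG_1. Its slopes were between -0.099 and -0.0053 in the other libraries, and each slope depends on all libraries.

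In control medium 3 members stood well above the rest. RDH11 was the highest at 40.1 ± 2.65 FPKM (SD, n = 5), followed by RDH10 at 26.3 ± 2.03 and CRABP2 at 16.2 ± 1.89, and the ranges of these neighbours did not overlap. RLBP1 at 6.47 ± 0.87 and RDH5 at 5.40 ± 0.38 FPKM followed and overlapped each other. LRAT was at 0.357 ± 0.162 FPKM. STRA6, RPE65 and RGR were at or near 0. The isomerase, the esterifying enzyme and the photoisomerase of the RPE were thus among the 4 lowest members in this line, and 2 dehydrogenases that many tissues express were the highest. In HG the order of the means was the same, but CRABP2 had come down into the range of RLBP1 and RDH5.

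**Figure D1:**
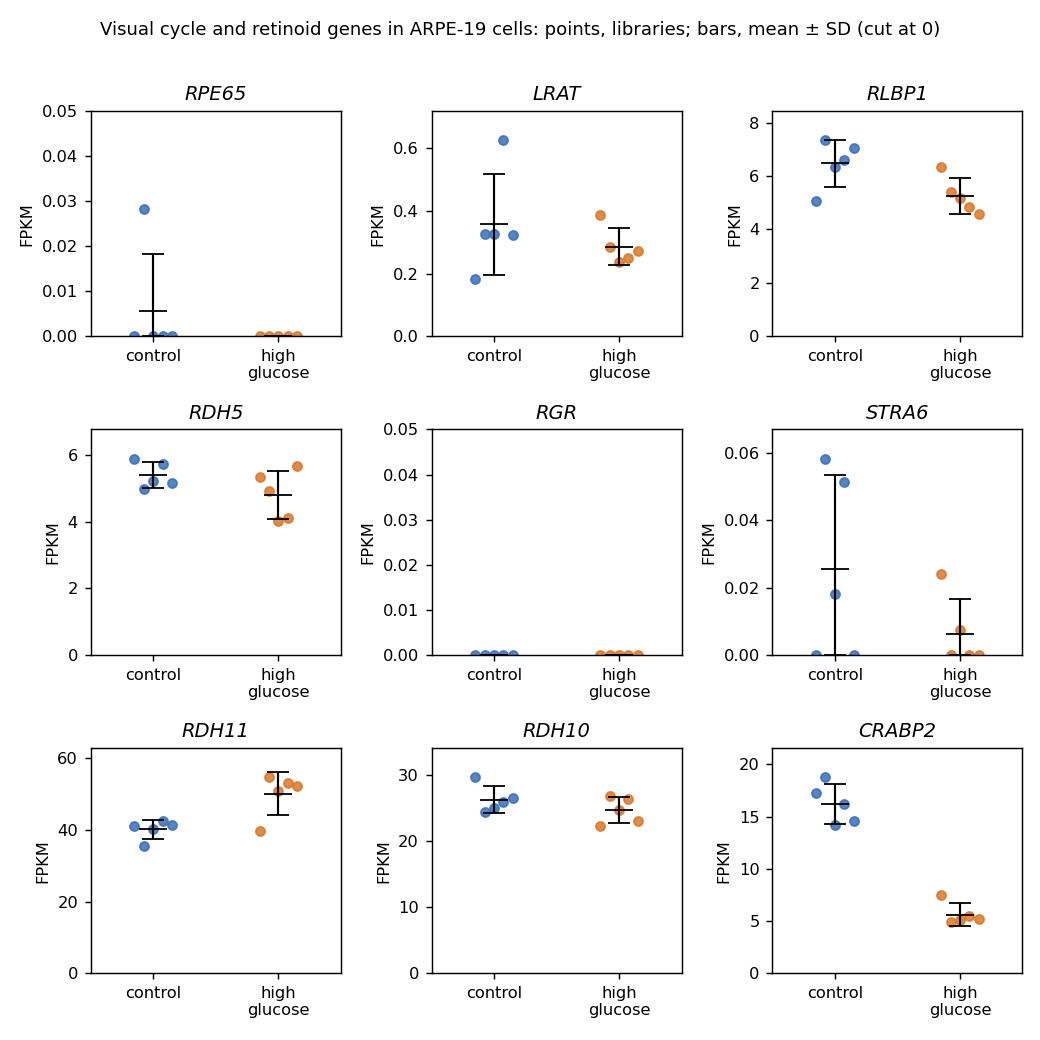
FPKM of the 9 members in each library (points) of the control and HG groups, with mean and SD (bars, cut at 0) and a separate linear axis from 0 for each gene. CRABP2 is separated between the groups (14.2 to 18.7 against 4.87 to 7.54 FPKM), RDH11 is higher in 4 of 5 HG libraries, and RPE65, RGR and STRA6 lie at or near 0.

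Of the 9 members, 6 passed the filter on low counts, and 2 of those 6 had an adjusted p under 0.05 in edgeR's quasi-likelihood test, adjusted by Benjamini-Hochberg over 14936 rows: CRABP2 fell and RDH11 rose. Of all rows tested, 15.4 percent were called, 7.62 percent higher and 7.8 percent lower in HG. The same 2 members had CPM values that did not overlap between the groups, which held for 13.6 percent of all rows. In bulk RNA, fewer cells of a kind and less RNA per cell cannot be told apart.

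For the members that changed, and for RLBP1, which passed in 3 of 20 alternatives, the RefSeq promoter sequence is shown. Each stretch runs from 250 bases before to 50 bases after the annotated start on GRCh38.p14, 5′ to 3′ on the gene's strand, and capitals mark matches to 6 short motifs searched on both strands. These are the GC box (GGGCGG), the TATA box (TATAAA), the CCAAT box (CCAAT), the E-box (CACGTG), the core element of nuclear receptor sites (AGGTCA) and the OTX2 and CRX core (TAATCC). CRABP2 lies at chr1:156705735-156706034, RDH11 at chr14:67695715-67696014 and RLBP1 at chr15:89221530-89221829, all 3 on the minus strand.
CRABP2: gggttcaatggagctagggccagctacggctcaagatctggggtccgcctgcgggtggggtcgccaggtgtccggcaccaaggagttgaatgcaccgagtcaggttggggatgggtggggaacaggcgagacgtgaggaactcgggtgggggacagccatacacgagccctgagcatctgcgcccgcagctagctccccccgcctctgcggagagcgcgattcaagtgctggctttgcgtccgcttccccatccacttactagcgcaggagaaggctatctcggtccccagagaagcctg
RDH11: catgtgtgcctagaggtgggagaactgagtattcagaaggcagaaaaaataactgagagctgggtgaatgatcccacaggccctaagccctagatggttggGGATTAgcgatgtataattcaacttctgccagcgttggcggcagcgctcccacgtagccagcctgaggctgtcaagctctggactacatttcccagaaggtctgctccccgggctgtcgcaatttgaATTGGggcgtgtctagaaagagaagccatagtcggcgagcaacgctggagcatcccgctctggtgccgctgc
RLBP1: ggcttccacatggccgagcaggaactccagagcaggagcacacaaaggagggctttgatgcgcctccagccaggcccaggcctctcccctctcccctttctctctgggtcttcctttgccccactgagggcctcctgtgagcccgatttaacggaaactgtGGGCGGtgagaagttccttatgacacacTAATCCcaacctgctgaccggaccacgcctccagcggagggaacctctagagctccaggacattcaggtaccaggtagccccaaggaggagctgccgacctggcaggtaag
The CRABP2 stretch held none of these letters. The RDH11 stretch held the OTX2 and CRX core and the CCAAT box, both on the opposite strand, and the RLBP1 stretch held the GC box and the OTX2 and CRX core. Of 35116 RefSeq promoters of this length, 6.4% held the OTX2 and CRX core, 34.6% the CCAAT box, 45.0% the GC box, 13.8% the nuclear receptor element, 11.5% the TATA box and 7.3% the E-box. A match is a run of letters and not a measured binding site.

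CRABP2 encodes the cellular protein that delivers retinoic acid to its nuclear receptor. It read 17.3, 18.7, 14.2, 16.2 and 14.6 FPKM in control replicates 1 to 5 and 7.54, 4.87, 5.07, 5.44 and 5.18 in HG_1 to HG_5. Every HG library lay below every control library, and HG_1 was the closest to the controls. In the counts CRABP2 (ENSG00000143320, chr1:156699606-156705816) was 2.89-fold lower in HG, a log2 fold change of -1.53 ± 0.15 (SE, 95% interval -1.86 to -1.21, adjusted p = 0.000131). The call held in all 20 alternatives, with log2 fold changes between -1.68 and -1.38.

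FABP5, which carries retinoic acid to a different nuclear receptor, PPAR-delta, is often set against CRABP2. FABP5 was at 65.1 ± 3.46 FPKM in control and 59.8 ± 3.17 in HG and did not pass (log2 fold change -0.13, adjusted p = 0.21). Its near-identical pseudogenes cover 26.2% of its exon windows, so some of its reads may be shared with them. Taken within each library, the ratio of CRABP2 to FABP5 was 0.275, 0.265, 0.222, 0.245 and 0.236 in the controls. In HG_1 to HG_5 it was 0.118, 0.0860, 0.0816, 0.0946 and 0.0885. The groups did not overlap, and the log2 difference of -1.42 had p = 0.00794 in a two-sided exact permutation test over all arrangements of the 10 libraries, the smallest that test can give (adjusted over the 2 ratios tested, 0.0159).

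**Figure D2:**
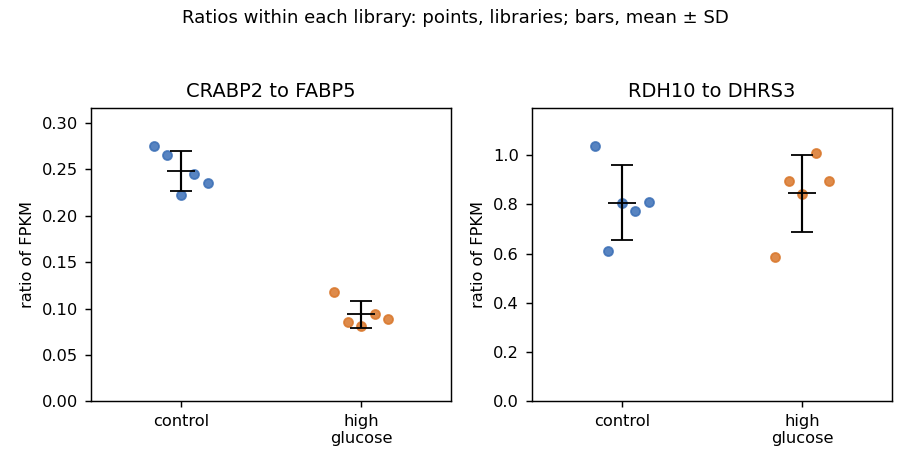
Ratio of FPKM within each library (points) for CRABP2 to FABP5 (left) and RDH10 to DHRS3 (right), with mean and SD (bars), in the control and HG groups on linear axes from 0. The CRABP2 ratios are 0.222 to 0.275 in control and 0.0816 to 0.118 in HG, while the RDH10 ratios overlap.

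RDH11 encodes a retinol dehydrogenase of the endoplasmic reticulum that acts on both all-trans and cis retinoids. It read 104.5, 92.2, 103.2, 106.1 and 103.2 CPM in control replicates 1 to 5 and 112.2, 133.4, 135.8, 135.4 and 129.0 in HG_1 to HG_5. All HG libraries lay above all control libraries in CPM. RDH11 (ENSG00000072042, chr14:67676801-67695814) was 26.8% higher in HG, with a log2 fold change of 0.34 ± 0.06 (SE, 95% interval 0.21 to 0.48, adjusted p = 0.00391). In FPKM the groups overlapped, because HG_1 read 39.5 where the other HG libraries read 50.9 to 54.6 and the controls 35.5 to 42.3. With limma on the FPKM values RDH11 missed the threshold with a pseudocount of 1 (adjusted p = 0.0527) and of 0.1 (adjusted p = 0.0513). It passed with a pseudocount of 1 among genes averaging 1 FPKM or more (adjusted p = 0.0333). Without control replicate 2 and HG_1 the log2 fold change in the counts was 0.36.

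RLBP1 encodes CRALBP, which binds 11-cis-retinoids in the RPE and Müller glia. It read 5.08, 7.34, 6.32, 6.59 and 7.03 FPKM in the controls and 6.33, 5.42, 5.17, 4.83 and 4.57 in HG. The groups overlapped through control replicate 1 and HG_1, and the log2 fold change of -0.32 ± 0.13 (95% interval -0.61 to -0.032) did not pass (adjusted p = 0.134). Without HG_1 it was -0.42 and passed (adjusted p = 0.0298). Without control replicate 2 and HG_1 together it was -0.36 (adjusted p = 0.0372), and with 1 surrogate variable -0.39 (adjusted p = 0.00874).

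RDH5, the 11-cis-retinol dehydrogenase of the RPE, read 5.00 to 5.89 FPKM in control and 4.02 to 5.67 in HG. Its log2 fold change was -0.19 ± 0.12 (95% interval -0.46 to 0.079, adjusted p = 0.354). A readthrough gene, BLOC1S1-RDH5, shares 43.8% of the exon windows of RDH5 and had 503 to 858 counts in the controls and 391 to 616 in HG (log2 fold change -0.33, adjusted p = 0.0305). How the counting split reads between the overlapping genes is not given in the sources used here.

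RDH10 catalyses the first oxidation of retinol on the way to retinoic acid. It read 24.5 to 29.7 FPKM in control and 22.3 to 26.8 in HG, with a log2 fold change of -0.11 ± 0.06 (95% interval -0.25 to 0.029, adjusted p = 0.29). RDH10 overlaps RPL7, a ribosomal protein gene on the opposite strand with 29174 to 46077 counts, and whether the counting used strand is not stated. DHRS3 reduces retinal back to retinol, so the ratio of RDH10 to DHRS3 sets the forward against the reverse enzyme. Its geometric mean was 0.795 in control and 0.831 in HG, and the groups overlapped (log2 difference 0.065, two-sided exact permutation p = 0.683).

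LRAT esterifies retinol for storage. It had 32, 79, 72, 30 and 71 counts in the controls and 64, 61, 56, 43 and 47 in HG, and its log2 fold change was 0.027 ± 0.23 (95% interval -0.48 to 0.53, adjusted p = 0.957). The 2 deposited units differ for LRAT: control replicate 4 had the fewest counts and the highest FPKM, 0.625, and the length implied by counts and FPKM ran from 1453 bases there to 5335 in HG_5.

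RPE65, the isomerase of the visual cycle, had 6 counts in control replicate 2 and 0 in the other 9 libraries. RGR, a retinal photoisomerase of the RPE, had 0 counts in all 10 libraries. STRA6, the membrane receptor for retinol bound to its plasma carrier, had 0, 10, 3, 5 and 0 counts in the controls and 3, 0, 1, 0 and 0 in HG (18 against 4 in all, two-sided exact permutation p = 0.286 on log2 CPM). A count of 0 allows up to 3 counts, between 0.0654 and 0.0925 CPM per library, for counting error only. No fold change is given for these 3 genes.

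Beside the 9 members, 62 other retinoid genes were listed, of which 39 passed the filter. Of these 3 rose and 7 fell, against 15.4 percent called among all rows, and the median log2 fold change was -0.11, against 0.0013 over all rows. With 1 surrogate variable 3 rose and 15 fell, and without control replicate 2 and HG_1 together 3 rose and 13 fell. The carriers and uptake genes had 1 call in 4 tested, SCARB1, a lipoprotein receptor that takes up carotenoids, which rose from 61.9 ± 3.09 to 81.0 ± 5.76 FPKM (log2 fold change 0.34, adjusted p = 0.00889).

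Among 10 tested dehydrogenases and reductases, ADH5 rose and AKR1C3 fell, 2 of 10 where 15.4 percent of all rows were called. ADH5, an alcohol dehydrogenase best known for clearing formaldehyde, went from 57.9 ± 1.86 to 71.5 ± 1.60 FPKM (adjusted p = 0.000517). AKR1C3, an aldo-keto reductase of steroids and retinal, went from 15.5 ± 2.14 to 11.6 ± 1.62 FPKM with overlapping groups (adjusted p = 0.0452), and 9 of 20 alternatives lost that call, among them the fits without control replicate 1 (adjusted p = 0.109) and without HG_2 (adjusted p = 0.104). Of 4 ester enzymes and 2 carotenoid oxygenases, 0 passed in edgeR's test, 0 had an unadjusted p under 0.05, and 0 passed in DESeq2 or in limma on FPKM. The highest ester enzyme was PNPLA2, a lipase, at 71.7 FPKM in control and 65.2 in HG, and the higher of the carotenoid oxygenases was BCO2 at 0.496 and 0.512.

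Of 5 tested genes that make or clear retinoic acid, 2 fell and 1 rose, where 15.4 percent of all rows were called. ALDH1A3, which oxidizes retinal to retinoic acid, read 246.9, 177.5, 214.3, 201.0 and 205.3 FPKM in the controls and 132.8, 162.7, 158.9, 147.6 and 159.9 in HG. It fell without overlap (log2 fold change -0.46 ± 0.08, adjusted p = 0.00284). CYP26B1, which degrades retinoic acid, fell from 2.91 ± 0.42 to 1.94 ± 0.30 FPKM (log2 fold change -0.69 ± 0.10, adjusted p = 0.00104). CYP1B1, a cytochrome P450 that can also oxidize retinol, rose from 11.7 ± 1.44 to 17.2 ± 1.96 FPKM (log2 fold change 0.54 ± 0.09, adjusted p = 0.00263). DESeq2 called 2 lower and 1 higher in this list, and limma on log2(FPKM + 1) 3 lower and 1 higher, CYP26A1 among the lower. CYP26A1 was low, with 119 counts in all in the controls and 31 in HG. It did not pass in edgeR (log2 fold change -1.91 ± 0.78, adjusted p = 0.132). Of 8 tested receptors and cofactors 2 fell and 6 did not pass, against 7.8 percent of all rows called lower, and DESeq2 and limma on log2(FPKM + 1) each called 3 lower. RARB, a retinoic acid receptor, fell from 29.5 ± 2.39 to 21.2 ± 2.40 FPKM (adjusted p = 0.00315).

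In a list of 15 genes known to respond to retinoic acid, 11 were tested, 4 fell and 0 rose, against 7.8 percent of all rows called lower. DESeq2 called 5 lower and limma on log2(FPKM + 1) 4 lower, with 0 higher in either, and 0 were higher at an unadjusted p under 0.05 in edgeR. All 11 log2 fold changes were below 0, with a median of -0.41, where 49.8 percent of all rows were below 0. The list was chosen with earlier results of these data known, so these counts describe the list only. RARB and CYP26B1, given above, are among the 4. TNFAIP2 fell with a log2 fold change of -0.88 ± 0.23 (adjusted p = 0.0244) and HIC1, a transcriptional repressor, with -0.47 ± 0.14 (adjusted p = 0.0471). The most abundant gene of the list, RARRES2, which encodes the secreted protein chemerin, read 626.7 to 929.8 FPKM in HG and 746.7 to 1055 in control and did not pass (adjusted p = 0.323). The count was 2 without control replicate 3 and without HG_5, 6 without HG_1, and 8 with 1 surrogate variable. HIC1 lost its call in 13 of 20 alternatives, and TNFAIP2 without control replicate 3 (adjusted p = 0.0606) and without HG_5 (adjusted p = 0.0596).

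**Figure D3:**
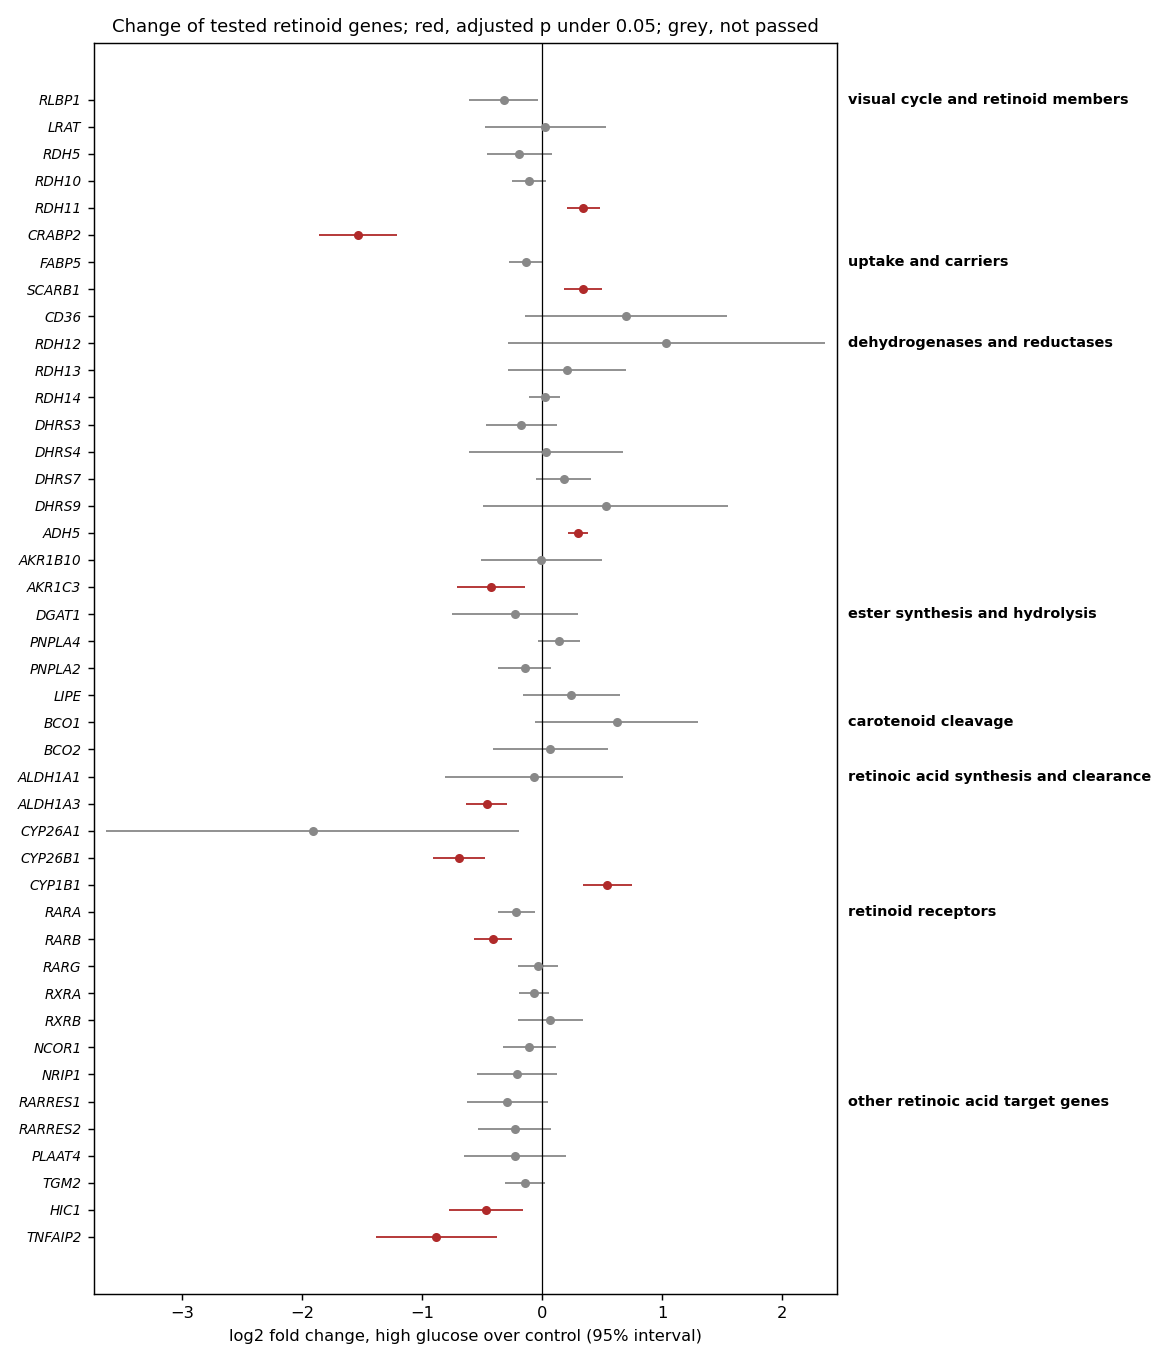
Log2 fold change of HG over control (points) with 95% interval (lines) for the tested members and 37 other tested retinoid genes, grouped by role, with genes in 2 lists drawn once; red marks an adjusted p under 0.05 in edgeR's quasi-likelihood test. CRABP2 at -1.53 has the most negative value among the genes that passed, and the retinoic acid target genes lie left of 0.

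Of 18 genes used as RPE identity markers 13 were tested, 4 fell in edgeR (PMEL, KRT8, KRT18 and EZR) and 9 did not pass, against 7.8 percent of all rows called lower. The 9 were OTX2, MITF, PAX6, BEST1, TYRP1, MERTK, SERPINF1, SLC16A8 and CDH3. At an unadjusted p under 0.05 there were 7, all lower, with OTX2 and MITF but not PAX6 among them, and DESeq2 called 6 lower. The summed level of the list was 1793 to 2187 FPKM in the controls and 1214 to 1496 in HG. That sum is mostly the keratins KRT8 (954.1 FPKM in control and 611.3 in HG) and KRT18 (689.8 and 431.8). Among photoreceptor markers 0 of 2 tested passed in edgeR (1 had an unadjusted p under 0.05; DESeq2 called 0, and limma 0 with a pseudocount of 1 and 1 with 0.1), 5 of 11 were at 0, and the sums were 4.95 to 7.80 and 5.90 to 8.18 FPKM. The Müller glia markers had 1 higher (DKK3) and 1 lower (SOX9) of 3 tested, where 7.62 percent of all rows were called higher and 7.8 percent lower. Of the 8 genes 3 were at 0, and the sums were 567.4 to 590.0 and 629.4 to 673.1 FPKM. Most of that sum is DKK3 (534.9 FPKM in control and 606.3 in HG), while SOX9 read 33.7 and 26.8 and GLUL 14.13 and 14.35. The part of these markers in the changes of CRABP2, RDH11 and the retinoic acid target genes was not tested.

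**Figure D4:**
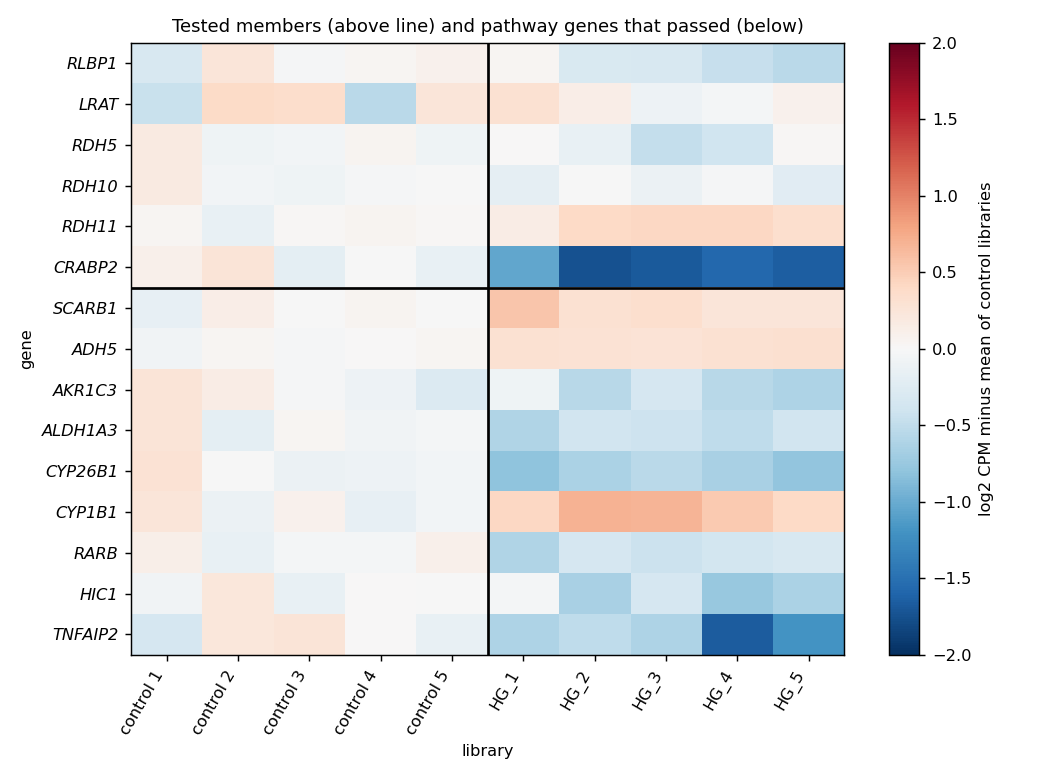
Log2 CPM of each tested member (above the line) and 9 of the retinoid genes that passed (below it) in each library, minus the mean of the control libraries; blue is lower and red higher. CRABP2 is lower in all 5 HG libraries and least so in HG_1, and TNFAIP2 is lowest in HG_4.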

How the data were processed

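ARPE-19 RNA was sequenced from 5 control and 5 HG libraries. The authors deposited whole-number read counts per gene, without normalization, and a second table of FPKM values, scaled by the authors to transcript length and library size. The submitters' processing notes name fastp 0.20.1, HISAT2 2.2.1 and GRCh38. The counting program, annotation and strand setting are not given in the sources used here. Groups were taken from the labels.

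Counts were tested with edgeR 4.0.16 (R 4.3.3): default count filter, TMM normalization, quasi-likelihood test, Benjamini-Hochberg adjustment over 14936 rows and a threshold of 0.05. Ratios and genes under the filter were tested by exact permutation over all arrangements of the libraries. Log2 CPM used a prior count of 2. The members and gene lists were chosen with earlier results of these data known. Named genes were all members, listed genes that passed, the highest of each list by FPKM and, for each tested member, the 2 genes with the most similar log2 CPM. DHRS3, OTX2, MITF, PAX6, BEST1, PDE6B, VIM, ZEB1, TWIST1, FN1, GLUL and CYP26A1 were named after their values were seen. So were TYR, TYRP1, DCT, MERTK, SERPINF1, SLC16A8, KCNJ13, CDH3, genes at 0 and overlapping genes.

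Alternatives were DESeq2 1.42.0, RLE factors, no scaling beyond library size, a minimum of 10 counts in every sample or no minimum, limma 3.58.1 on log2(FPKM + 1), also limited to a mean FPKM of 1 or more, and on log2(FPKM + 0.1), 1 surrogate variable (sva 3.50.0), each library left out, and control replicate 2 and HG_1 left out together. The steps were tested on simulated data. All 20 within-group pairs of libraries differed by more than sampling noise (mean chi-square per gene at least 13.8, where noise gives about 1). Gene positions are from GENCODE 29 and promoters from RefSeq, both on GRCh38; 8 of the 9 members were matched to a promoter. Exon windows of 100 bases were compared for shared sequence. Protein sequences were not used here, and 3 listed genes that enter the counts are not reported here by name.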

Additional observations from a re-analysis of the deposited data

Results flagged for a closer look

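Among 40 sets of 5 values (each member and group in FPKM, in CPM and in the 2 ratios), 8 held a library whose gap to its nearest neighbour was more than 0.71 of the whole range. Chance gives about 1 in 20 (5%) for independent sets of normally distributed values. These sets are not independent, because FPKM and CPM of the same gene and libraries are both counted. The 6 sets of RGR and RPE65 that were all 0 could not show such a gap, and a set with a single value above 0, as RPE65 in control, always does. In HG_1, CRABP2 was at 7.54 FPKM and 8.24 CPM, where the other HG libraries were at 4.87 to 5.44 FPKM and 5.04 to 5.68 CPM. In the same library RDH11 was at 39.5 FPKM against 50.9 to 54.6, and STRA6 was at 0.0779 CPM, which is 3 counts, against 0 to 0.0223. Control replicate 2 had RDH11 at 92.2 CPM against 103.2 to 106.1, and RPE65 at 0.0283 FPKM and 0.135 CPM, which is 6 counts, against 0 in the other controls. Control replicate 1 had RDH10 at 126.9 CPM against 105.9 to 111.4. HG_1 and control replicate 2, which hold 7 of the 8, are the libraries with a rising trend on GC content relative to the other libraries. The part of that trend in these values was not tested. The call on CRABP2 and on RDH11 held without both libraries (log2 fold changes -1.61 and 0.36).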

How the results depend on the processing

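Across 16 genes and 318 alternative values, 283 kept their direction and side of the threshold, 26 lost the call, 3 gained it and 6 turned sign. Of the 6 tested members, 2 were called, against 1 with limma on log2(FPKM + 1) and 1 on log2(FPKM + 0.1), where RDH11 had adjusted p of 0.0527 and 0.0513 (0.0333 among genes averaging 1 FPKM or more). With each library left out in turn 2 to 3 were called. Of the retinoid genes 10 were called, 18 with 1 surrogate variable, 16 without control replicate 2 and HG_1 together, and 7 to 14 with each library left out. Of the retinoic acid target genes 4 were called, 8 with 1 surrogate variable, and 2 to 6 with each library left out. LRAT turned sign to -0.071 and -0.19 with limma on log2(FPKM + 1) and log2(FPKM + 0.1) and to -0.021 with 1 surrogate variable, and ran from -0.091 to 0.13 with each library left out. The ratio of CRABP2 to FABP5 lost its call without control replicate 2 and HG_1 together (log2 difference -1.48, adjusted exact permutation p = 0.0571, where 4 against 4 libraries limit p), and was -1.50 to -1.37 with each library left out. The ratio of RDH10 to DHRS3 was -0.031 to 0.19, below 0 without control replicate 2 and without HG_4. The cause was not tested. No paired analysis was possible because the numbered HG columns could be matched to the group only, not to a labelled sample, and no source says that equal column numbers mark a pair. STRA6, RPE65 and RGR, at 0 to 10 counts per library, were too low for a fold change.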

Other observations

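Of 12 genes used as mesenchymal markers, which RPE cells in culture also express, 9 were tested and 5 fell in edgeR's quasi-likelihood test, against 7.8 percent of all rows called lower. Among the 5 were COL1A1, a collagen chain, from 9.06 ± 1.2 to 3.43 ± 0.34 FPKM (log2 fold change -1.33, adjusted p = 2.855e-05), TAGLN, an actin-binding protein of contractile cells, from 52.0 ± 7.45 to 21.9 ± 4.31 FPKM (-1.30, adjusted p = 0.00025) and S100A4, a calcium-binding protein, from 2.37 ± 0.52 to 1.07 ± 0.26 FPKM (-1.16, adjusted p = 0.0073). ACTA2 and CDH2 were the other 2. Those that did not pass were FN1 (log2 fold change -0.34, adjusted p = 0.0971), VIM (0.11, adjusted p = 0.168), ZEB1 (-0.052, adjusted p = 0.851) and TWIST1 (-0.0009, adjusted p = 0.996). Of the 9 log2 fold changes 8 were below 0. The summed level of the list was 3052 to 3177 FPKM in control and 3145 to 3428 in HG, and most of it is VIM, an intermediate filament protein, with means of 2761 and 3003 FPKM.

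Over the 10 libraries and 12243 genes, the log2 CPM most like that of CRABP2 belonged to EHD2, a membrane-associated ATPase of caveolae, and PIEZO1, a mechanically gated ion channel (Pearson r = 0.995 for both). Both fell, with log2 fold changes of -0.57 and -0.44. The closest to RDH11 were ADO (0.988) and GBE1, the glycogen branching enzyme (0.987), which both rose. For the members that did not pass, the closest were PRKRIP1 (0.96) and CLDN4 (0.956) for RLBP1, PRPF40B (0.944) and SMIM38 (0.895) for LRAT, ANXA8 (0.905) and SH2D3A (0.882) for RDH5, and BRMS1L (0.956) and GOLGA3 (0.93) for RDH10. These values share their libraries and depth and, for CRABP2 and RDH11, the difference between the groups, and no p is given.

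BEST1, a chloride channel of the RPE, had 8707, 42, 24, 18223 and 234 counts in the controls and 300, 255, 44, 191 and 184 in HG. It overlaps FTH1 on the opposite strand, with 188595 to 361514 counts. The BEST1 difference did not pass (adjusted p = 0.067), and the summed RPE identity markers without it were 1793 to 2130 FPKM in control and 1212 to 1494 in HG.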
